A study of Mus musculus with 6 samples.

Results

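Receptors named Gpr with a number, most of them orphans when they were named, and the purinergic receptors P2rx and P2ry were examined together in mouse double negative thymocytes. The set holds every probe set whose platform gene symbol is Gpr, P2rx or P2ry followed by a number alone, without Gpr83, which gave 107 probe sets for 70 genes among the 45037 probe sets of the series that are not controls. Of these genes, 55 are Gpr genes with 83 probe sets, 7 are P2rx genes with 16 and 8 are P2ry genes with 8. The samples were 3 arrays of Egr1/Egr3 double knockout mice and 3 arrays of wild type mice, with 1 animal named for each array. Both groups are described as double negative thymocytes obtained by flow cytometry, although the titles and source names give whole thymus. The labels name no strain, age, sex or knockout allele, and no treatment other than the fractionation that all 6 samples share.

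Most of these genes encode receptors that cross the membrane several times and signal through heterotrimeric G proteins, which raise or lower cyclic AMP or release calcium. P2Y receptors respond to extracellular nucleotides and nucleotide sugars in this way, whereas P2X receptors are ion channels that ATP opens directly. Extracellular ATP reaches thymocytes from dying cells, and P2X7 is known for pore formation and cell death in thymocytes at high ATP. Several receptors related to P2Y by sequence, among them those encoded by Gpr171, Gpr18, Gpr183, Gpr174, Gpr34 and P2ry10, are found mainly on lymphocytes or myeloid cells and respond to lipids or peptides, or have no settled ligand.

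Facts of the series that bear on these values come first. The Egr1 probe set read 1757, 1696 and 1221 on the double knockout arrays, against 508, 509 and 455 on the wild type arrays, a log2 change of 1.60 (SE 0.24, limma adjusted p = 0.00312). The brighter Egr3 probe set read 34.4, 45.8 and 32.9 on the double knockout arrays, against 92.2, 83.1 and 30.8 on the wild type arrays (log2 change -0.59, SE 0.32, adjusted p = 0.368), and the dimmer gave -0.07 (SE 0.32). The position of these probe sets against the deleted sequence was not analysed here, so the labels could be checked neither way and every direction below is that of the arrays labelled double knockout. The Y-linked gene Eif2s3y read between 186 and 265 on the double knockout arrays, against 476, 13.2 and 0.625 on the wild type arrays, while the Xist probe set of highest mean read between 3910 and 6015, against between 1439 and 5311, so both signals were present on the 3 double knockout arrays and on wild type replicate 1. T lineage genes were present, with Cd3d between 5510 and 8357 on the double knockout arrays and between 6121 and 9805 on the wild type arrays, and Cd4 lay under the brightest of 27 bacterial control probe sets on every array. Cd8a and Cd8b1 lay above these controls on every array. Cd8a read between 68.5 and 86.0 on the double knockout arrays, against between 82.9 and 197, and Cd8b1 between 65.9 and 137, against between 70.4 and 119. The 10 named granulocyte genes summed to between 18470 and 27639 on the double knockout arrays, against 11447, 24842 and 318 on the wild type arrays, so wild type replicate 3 stood apart.

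Few of the receptors were detected well above the controls. A mean intensity of 50 in at least 1 group was reached by 22 probe sets of 19 genes, or 20.6% of the 107, against 35.5% of all 45037 probe sets. Of the 22, 19 reached 50 in both groups, 2 in the double knockout group alone (Gpr146 and the dimmer probe set of Gpr174) and 1 in the wild type group alone (the dimmer probe set of P2rx1). Just inside the limit was Gpr146 with a mean of 52.8 on the double knockout arrays and 33.2 on the wild type arrays, and just outside was Gpr155 with 49.6 and 24.6. The 19 genes were Gpr171, Gpr65, Gpr18, P2ry10, P2ry14, Gpr25, Gpr174, Gpr183, Gpr19, Gpr146, Gpr89, Gpr107, Gpr108, Gpr137, Gpr160, Gpr180, P2rx1, P2rx4 and P2rx7. On the other side, 51 probe sets read under the brightest bacterial control on each of the 6 arrays, and for 27 genes this held for all of their probe sets.

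In all, 5 receptors were called higher in the arrays labelled double knockout: Gpr171, P2ry14, Gpr65, Gpr18 and P2ry10. None fell. The test was limma's moderated test on log2(intensity + 16), run over the 27022 probe sets that passed a filter on low values, of which 52 belong to 38 of the receptor genes, with Benjamini-Hochberg adjusted p under 0.05 as the threshold. Over all tested probe sets 2.91% were called higher and 2.11% lower, whereas 9.62% of the 52 receptor probe sets (5) were called higher and 0 lower. Unadjusted p lay under 0.05 for 9 that were higher and 2 that were lower. Over all 27022 tested probe sets it lay under 0.05 for 5069, both directions together. The 52 had a median log2 change of 0.12, with 33 changes above 0 and 19 below, beside a median of 0.0025 over all tested probe sets. Changes above 0 made up 63.5% of the 52, beside 50.3% of all tested probe sets. Without double knockout replicate 1 the count of higher receptors was 3, since Gpr18 and P2ry10 lost their calls. In bulk samples, more RNA of a gene in each cell and more cells that carry it cannot be told apart.

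Gpr171 encodes an orphan receptor of the P2Y-like group that has been paired with a neuropeptide in brain and described as a brake on T cell activation. Its probe set read 2129, 1796 and 2452 on the double knockout arrays, against 180.2, 251 and 238 on the wild type arrays. Each double knockout array was thus far above each wild type array, with means of 2126 ± 328 and 223 ± 37.8 (SD, n = 3 each), a 9.53-fold ratio. The log2 change was 3.15 (SE 0.25, limma adjusted p = 6.75e-05), and it stayed between 2.92 and 3.28 under the 16 alternatives, past the threshold in each.

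P2ry14 encodes the receptor for UDP-glucose and related nucleotide sugars, which couples to inhibitory G proteins. It read 382, 432 and 494 on the double knockout arrays, against 98.8, 95.2 and 83.7 on the wild type arrays. The groups did not overlap, and their means were 436 ± 56.1 and 92.5 ± 7.90 (SD, n = 3 each), a 4.71-fold ratio. The log2 change of 2.04 (SE 0.24, limma adjusted p = 0.000655) passed under each of the 16 alternatives.

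Gpr65, the proton-sensing receptor first named T cell death-associated gene 8, read 1111, 915 and 1055 on the double knockout arrays, against 282, 239 and 427 on the wild type arrays. Again no array of either group fell within the range of the other, and the means were 1027 ± 101 and 316 ± 98.6 (SD, n = 3 each), a 3.25-fold ratio. Its log2 change was 1.67 (SE 0.26, limma adjusted p = 0.00429), and the adjusted p reached at most 0.0470 under the alternatives.

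P2ry10 encodes a receptor for lysophosphatidylserine that has been linked to T cell migration, despite its place in the P2Y nomenclature. It read 2256, 2639 and 2446 on the double knockout arrays, against 963, 759 and 1191 on the wild type arrays. The lowest double knockout array was well above the highest wild type array, and the means were 2447 ± 192 and 971 ± 216 (SD, n = 3 each), a 2.52-fold ratio. The log2 change was 1.32 (SE 0.23, limma adjusted p = 0.00657). Without double knockout replicate 1 it was 1.36 with an adjusted p of 0.0556. P2ry10 lies on the X chromosome, and the part of the sex-linked signals given above in its change was not tested.

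Gpr18, for which lipid ligands have been proposed and which marks intraepithelial lymphocytes, had the least stable call. It read 385, 477 and 470.5 on the double knockout arrays, against 183, 248 and 90.1 on the wild type arrays. The groups did not overlap, but wild type replicate 3 lay far below the other wild type arrays. The means were 444 ± 51.1 and 174 ± 79.4 (SD, n = 3 each), a 2.56-fold ratio, with a log2 change of 1.35 (SE 0.33, limma adjusted p = 0.0381). The call was lost under 7 of 16 alternatives, with adjusted p up to 0.129. These were the offset of 1, no intensity filter, the replicate block and the fits without wild type replicate 1 or without any 1 of the double knockout arrays. Without wild type replicate 3 the change was 0.97 (adjusted p = 0.0296).

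**Figure D1:**
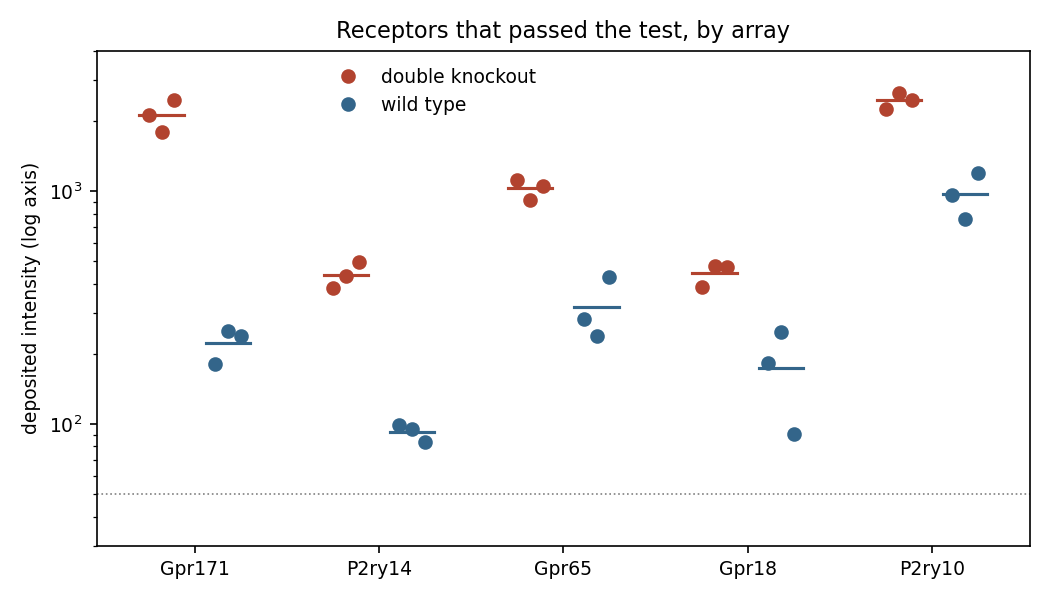
Deposited intensity (log axis) of the receptors that passed the test, with 1 point for each array, double knockout left and wild type right, and a line at each mean of 3 arrays. In each of the 5 genes every double knockout point lies above every wild type point. The dotted line marks an intensity of 50.

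**Figure D2:**
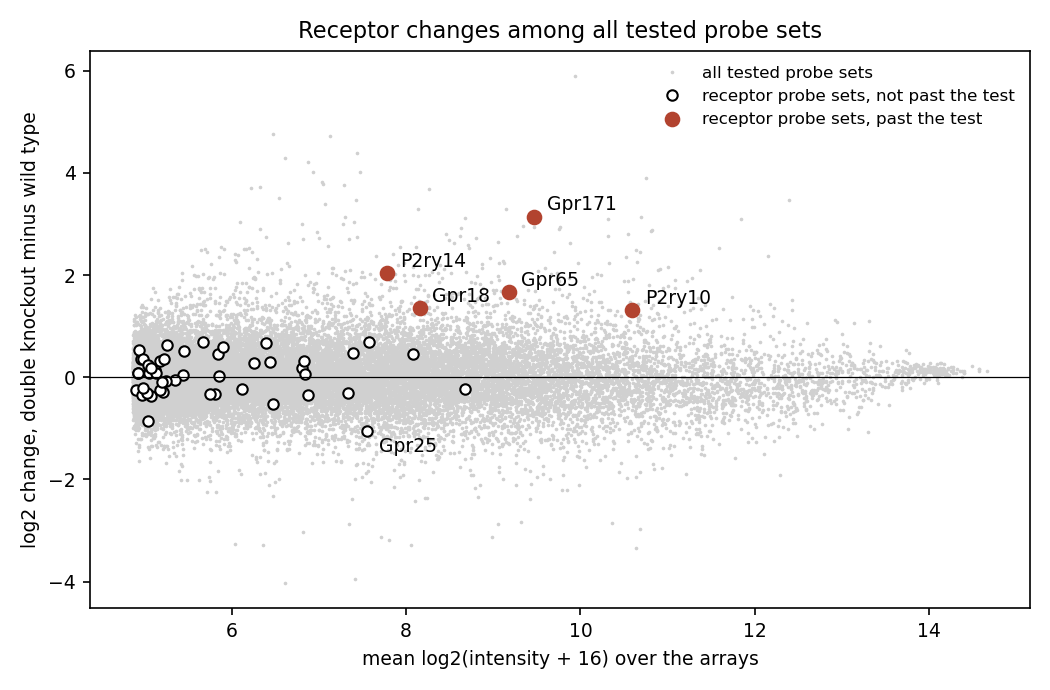
Log2 change (double knockout minus wild type, on the scale of intensity plus 16) against mean log2 level for the 52 tested receptor probe sets, over all 27022 tested probe sets in grey. The 5 filled points have changes between 1.32 and 3.15, and the open points lie between -1.05 and 0.70.

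Some genes listed as markers of other cells also differed between the groups. The 9 named NK cell genes summed to between 2354 and 3949 on the double knockout arrays, against between 537 and 820 on the wild type arrays, with 3 of 7 tested members higher (Nkg7, Klrd1 and Gzmb), while the NK receptor gene Ncr1 read under the brightest bacterial control on every array. Nkg7 and Klrd1 made up most of each sum. Tbx21 was also above without overlap but did not pass. The groups overlapped in Prf1 (log2 change 0.35, SE 0.27), Klre1 (-0.48, SE 0.34), Eomes (-0.17, SE 0.26) and the untested Klra8. B cell genes summed to between 2476 and 2945, against between 1164 and 2086, with Cd79b alone higher of 8 tested and Pax5 between 22.1 and 32.3, against between 23.9 and 39.04. Cd79b itself read between 1782 and 1922, against between 571 and 1081. The groups overlapped in every other named B cell gene, among them Cd79a (log2 change -0.60, SE 0.31) and Cd22 (-0.61, SE 0.33). Platelet genes summed to between 382 and 504, against between 177 and 286, with Itgb3 alone higher of 4 tested. Itgb3 itself read between 205 and 360, against between 69.0 and 156. Itga2b also lay above the wild type arrays without overlap but did not pass. The dim genes Ppbp and Gp9, which were not tested, lay below them without overlap. For macrophages and dendritic cells the sums lay between 2088 and 2430, against between 1069 and 3132, for thymic epithelium between 1212 and 3225, against between 495 and 2166, and for erythroid cells between 308 and 399, against between 60.7 and 3278. Epcam made up most of each epithelial sum, while Cldn4 lay above and Aire below the wild type arrays without overlap. The highest erythroid sum came from Alas2, which read 3142 on wild type replicate 3, against 245 and 13.1 on the other wild type arrays. The 11 named T lineage genes summed to between 16123 and 19206 on the double knockout arrays, against between 23059 and 30065 on the wild type arrays, with Ptcra lower. Thy1 also lay below the wild type arrays without overlap (log2 change -0.84, SE 0.25) but did not pass. Cd247 (0.85, SE 0.26) and Cd2 (0.98, SE 0.32) lay above them without overlap and did not pass either. Whether other cells were present, and any part of theirs in the receptor changes, was not tested. Without wild type replicate 3, which stood apart in its granulocyte sum, the log2 changes were 3.19 for Gpr171, 1.97 for P2ry14, 1.89 for Gpr65, 1.47 for P2ry10 and 0.97 for Gpr18, each past the threshold. Wild type replicate 1, at 11447, also lay below each double knockout array in that sum. Leaving out replicate 3 therefore did not even out the groups, and the part of granulocytes in the receptor changes was not tested.

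The bases before the start sites of the receptors that rose are shown because Egr1 and Egr3 bind DNA. Binding at these genes was not tested. For 53 of the 70 genes a RefSeq promoter of the mouse build GRCm38.p6 was read, and for 4 of the 5 that rose; each window is the 250 bases before the most upstream start in the table. The EGR motif GCGNGGGCG was searched on both strands, as were the RUNX motif TGTGGTT and the FOXO motif TGTTTAC, and capitals mark a match to any of the 3. No match of 1 of these motifs overlapped a match of another.
Gpr18, chr14:121915889-121916138, minus strand: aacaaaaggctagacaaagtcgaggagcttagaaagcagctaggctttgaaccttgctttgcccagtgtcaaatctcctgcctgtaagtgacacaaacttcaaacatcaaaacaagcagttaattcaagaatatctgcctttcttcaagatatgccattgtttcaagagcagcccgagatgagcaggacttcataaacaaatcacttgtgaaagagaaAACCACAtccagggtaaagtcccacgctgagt
Gpr65, chr12:98268385-98268634, plus strand: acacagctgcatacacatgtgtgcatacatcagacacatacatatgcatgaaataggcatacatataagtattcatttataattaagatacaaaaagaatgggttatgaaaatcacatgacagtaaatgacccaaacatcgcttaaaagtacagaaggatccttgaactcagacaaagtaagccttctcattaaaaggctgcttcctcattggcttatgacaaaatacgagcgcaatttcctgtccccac
P2ry10, chrX:107088242-107088491, plus strand: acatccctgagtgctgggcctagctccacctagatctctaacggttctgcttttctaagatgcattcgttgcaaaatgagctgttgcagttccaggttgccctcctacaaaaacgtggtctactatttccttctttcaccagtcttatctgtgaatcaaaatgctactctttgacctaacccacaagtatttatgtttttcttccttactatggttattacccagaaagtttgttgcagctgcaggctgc
P2ry14, chr3:59153493-59153742, minus strand: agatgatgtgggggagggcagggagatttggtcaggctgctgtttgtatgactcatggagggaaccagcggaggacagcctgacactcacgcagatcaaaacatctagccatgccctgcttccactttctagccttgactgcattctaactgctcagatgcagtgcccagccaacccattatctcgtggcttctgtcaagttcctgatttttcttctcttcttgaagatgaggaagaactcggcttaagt

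None of these 4 windows holds the letters of the EGR motif, which also holds for the other starts that the table lists for P2ry10 (2 starts in all) and P2ry14 (4 in all). The capitals in Gpr18 are a RUNX match on the opposite strand, between 32 and 26 bases before the start. Among the 53 windows, 3 hold an EGR match (Gpr153, Gpr19 and P2rx7), 4 a RUNX match (Gpr132, Gpr15, Gpr18 and Gpr39) and 1 a FOXO match (Gpr180). Over all 32851 promoter windows of the table, which count every listed start, the shares with a match were 4.70% for EGR, 4.40% for RUNX and 3.17% for FOXO. The windows of the 2 receptors with an EGR match that reached an intensity of 50 are given for comparison, with the match in capitals on the opposite strand.
Gpr19, chr6:134897926-134898175, minus strand: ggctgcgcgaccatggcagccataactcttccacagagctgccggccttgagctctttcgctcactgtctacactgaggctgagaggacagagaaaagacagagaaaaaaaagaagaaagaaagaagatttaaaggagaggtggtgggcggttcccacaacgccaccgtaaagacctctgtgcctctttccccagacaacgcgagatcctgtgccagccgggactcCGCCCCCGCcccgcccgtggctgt
P2rx7, chr5:122643677-122643926, plus strand: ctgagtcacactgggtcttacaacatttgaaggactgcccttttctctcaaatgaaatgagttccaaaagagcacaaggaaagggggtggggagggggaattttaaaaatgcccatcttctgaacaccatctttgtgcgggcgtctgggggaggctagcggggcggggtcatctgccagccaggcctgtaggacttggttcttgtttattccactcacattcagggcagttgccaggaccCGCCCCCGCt

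A match is a run of letters and not a measured site. Neither Gpr19 nor P2rx7 passed the test, as their values below show.

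Apart from P2ry14, the receptors for nucleotides of the P2Y group were dim. P2ry1, the ADP receptor of platelets, averaged 1.83 ± 0.458 on the double knockout arrays and 1.16 ± 0.148 on the wild type arrays (SD, n = 3 each). The ATP and UTP receptor P2ry2 averaged 4.31 ± 0.428 and 6.01 ± 3.04, and the ADP receptor P2ry12, a microglia and platelet gene, 10.8 ± 10.6 and 2.62 ± 2.14. These 3 genes did not pass the intensity filter. P2ry4, a receptor for UTP, averaged 9.59 ± 9.22 and 28.5 ± 6.25, with each double knockout array below each wild type array (log2 change -0.86, SE 0.31, limma adjusted p = 0.147, or 0.0240 with array weights). The UDP receptor P2ry6 averaged 17 ± 12 and 14 ± 9.6 (log2 change 0.09, SE 0.37), and the ADP receptor P2ry13 20.8 ± 9.60 and 21.8 ± 3.83 (log2 change -0.09, SE 0.30), neither past the test. P2ry14 was thus the 1 member of these 7 genes to reach an intensity of 50.

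Among the ATP-gated channels, P2rx1, P2rx4 and P2rx7 reached an intensity of 50 and none passed the test. P2rx4, a channel of lymphoid and myeloid cells, read 240.3, 275 and 178 on the double knockout arrays, against 104, 117 and 188 on the wild type arrays. The groups overlapped through wild type replicate 3, and the log2 change was 0.70 (SE 0.28, limma adjusted p = 0.196). Without that array the change was 0.92 (adjusted p = 0.0438), and with array weights 0.82 (adjusted p = 0.0335). Its dimmer tested probe sets gave 0.24 (SE 0.32) and 0.08 (SE 0.38).

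P2rx7, the channel of ATP-induced death, read 145, 86.4 and 110.2 on the double knockout arrays, against 108, 117 and 47.0 on the wild type arrays, with overlap (log2 change 0.32, SE 0.33, limma adjusted p = 0.673). A dimmer P2rx7 probe set read 38.0, 25.4 and 32.9, against 18.9, 14.8 and 10.3, without overlap (log2 change 0.63, SE 0.27, adjusted p = 0.231), and the remaining set gave 0.37 (SE 0.35). P2rx1 read 95.98, 33.8 and 57.9 on the double knockout arrays, against 75.4, 98.0 and 98.4 on the wild type arrays (log2 change -0.53, SE 0.32, adjusted p = 0.41), and its dimmer probe set gave -0.22 (SE 0.23). The other channels were dim. P2rx5 averaged 19.5 ± 13.9 on the double knockout arrays and 30.9 ± 34.2 on the wild type arrays (SD, n = 3 each), P2rx6 21.6 ± 12.6 and 16.4 ± 9.95, P2rx3, a channel of sensory neurons, 14.9 ± 10.1 and 18.04 ± 5.53, and P2rx2 4.02 ± 0.817 and 3.82 ± 1.78. Across the 12 tested P2rx probe sets the median log2 change was 0.13.

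Of the 9 genes whose receptors are related to P2Y by sequence, Gpr171, Gpr18 and P2ry10 rose and the others were not called. Gpr183 encodes the oxysterol receptor that guides B and T cells in lymphoid organs. It read 48.4, 88.4 and 74.2 on the double knockout arrays, against 58.7, 88.5 and 25.1 on the wild type arrays, with overlap, and its probe sets gave log2 changes of 0.29 (SE 0.35, limma adjusted p = 0.721) and -0.33 (SE 0.30). Gpr174, an X-linked lysophosphatidylserine receptor of T cells, disagreed between its probe sets. The dimmer read 53.0, 75.1 and 48.7, against 36.6, 39.1 and 23.1, without overlap (log2 change 0.60, SE 0.26, adjusted p = 0.237), while the brighter, of a kind marked as reading several sequences, read 90.6, 85.0 and 138, against 129, 59.5 and 110 (log2 change 0.07, SE 0.29, adjusted p = 0.925). Gpr34, a lysophosphatidylserine receptor of myeloid cells, read 4.42, 5.86 and 0.777, against 13.8, 11.3 and 19.1, without overlap, and did not pass the intensity filter. Beside Gpr65 stand Gpr4, which was dim, and Gpr132, a receptor related to the proton sensors, which read 22.4, 28.2 and 59.9, against 58.6, 40.5 and 41.0 (log2 change -0.32, SE 0.29, adjusted p = 0.63).

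Gpr25, an orphan receptor of T cells, had the lowest adjusted p among the receptors that did not pass. It read 121, 73.5 and 168 on the double knockout arrays, against 348, 259 and 175 on the wild type arrays. Each double knockout array was below each wild type array, and the means were 121 ± 47.3 and 261 ± 86.7 (SD, n = 3 each). The log2 change was -1.05 (SE 0.33, limma adjusted p = 0.09995). Without wild type replicate 3 it was -1.30 (adjusted p = 0.0216), and with array weights -1.05 (adjusted p = 0.0196).

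A further group holds 8 genes named Gpr. Most of them encode proteins that work inside the cell or have an unsettled place among G protein-coupled receptors. Of the 8 genes, 6 reached an intensity of 50, and none of the group's 9 tested probe sets passed. Gpr89, an anion channel that sets Golgi pH, read 337, 354 and 406 on the double knockout arrays, against 498, 480 and 323 on the wild type arrays (log2 change -0.24, SE 0.26, limma adjusted p = 0.694). Gpr107, a Golgi membrane protein, read 385, 344 and 211, against 143, 235 and 287 (log2 change 0.46, SE 0.32, adjusted p = 0.49), and its second probe set at this level gave 0.17 (SE 0.24). The related Gpr108 read 215, 145 and 196, against 107, 141 and 132, without overlap (log2 change 0.47, SE 0.26, adjusted p = 0.371).

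Gpr137, a lysosomal membrane protein, gave a log2 change of 0.29 (SE 0.29), Gpr160 one of 0.68 (SE 0.37) and Gpr180 one of -0.30 (SE 0.32), each with overlapping groups and none past the test. Gpr155, a lysosomal cholesterol sensor, read 48.9, 60.03 and 39.8 on the double knockout arrays, against 30.5, 14.4 and 28.9 on the wild type arrays, without overlap (log2 change 0.69, SE 0.26, adjusted p = 0.171). With array weights its adjusted p was 0.0425.

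**Figure D3:**
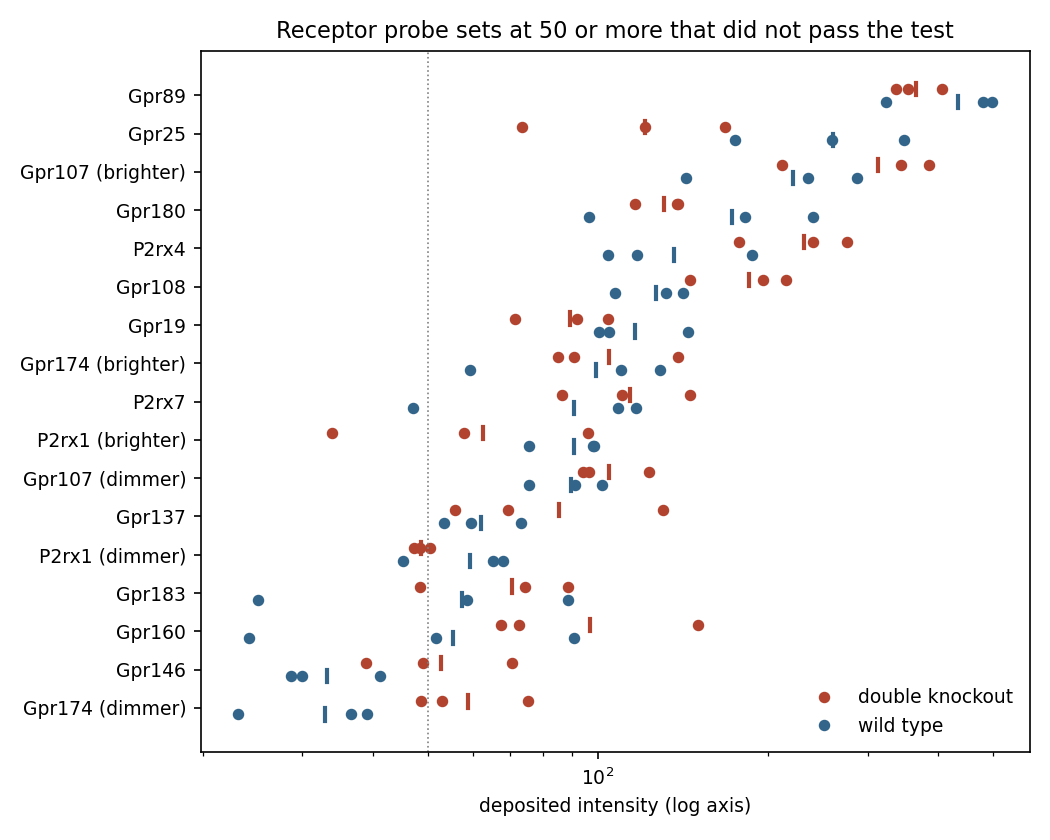
Deposited intensity (log axis) of the receptor probe sets that reached a mean of 50 in a group and did not pass the test, with double knockout arrays (red) above wild type arrays (blue) in each row and a bar at each mean. The groups overlap in all of them but Gpr25, Gpr108 and the dimmer probe set of Gpr174. The dotted line marks an intensity of 50.

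Of the remaining orphan receptors, Gpr19 and Gpr146 alone reached an intensity of 50. Gpr19, an orphan receptor studied in brain and in dividing cells, read 91.9, 71.4 and 104 on the double knockout arrays, against 144, 105 and 100.4 on the wild type arrays (log2 change -0.35, SE 0.25, limma adjusted p = 0.512). Gpr146, a receptor linked to plasma cholesterol, read 49.1, 70.5 and 38.9, against 29.9, 41.1 and 28.6 (log2 change 0.45, SE 0.26, adjusted p = 0.399), while another of its tested probe sets gave 0.51 (SE 0.30) and the other -0.25 (SE 0.35). Gpr3, a receptor that raises cyclic AMP without added ligand, read 19.3, 25.5 and 19.2, against 8.997, 13.5 and 6.08, without overlap but near the bacterial controls (log2 change 0.54, SE 0.28, adjusted p = 0.345).

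The other 55 probe sets were left out of the test by the intensity filter, and 32 genes had no tested probe set. They include receptors known mainly from brain, such as Gpr6, Gpr12, Gpr26, Gpr50, Gpr62 and Gpr101, as well as Gpr35 and Gpr4. No group mean among these 55 was above 17.7. Of them, 7 had each double knockout array above each wild type array and 3 the reverse. The matching share over all probe sets left out was not counted, so these counts have no baseline. Each group mean here also lay under the brightest bacterial control of every array. Among the 52 tested probe sets the groups did not overlap in 10 that were higher (19.2%) and 2 that were lower (3.85%), beside 13.2% and 11.0% of all tested probe sets.

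Genes that act around these receptors were counted from lists of nucleotide and G protein signalling, each gene at its probe set of highest mean. Of 83 tested genes in the 7 lists, 7 were higher and 2 lower, or 8.43% and 2.41%, beside 3.72% and 2.54% of the 13188 genes tested in this way. Their median log2 change was 0.23, against -0.01 over those 13188 genes. Of the 16 tested genes that break down or move extracellular nucleotides and adenosine, Dpp4, the peptidase that anchors adenosine deaminase at the surface, rose by 1.06 (SE 0.23, limma adjusted p = 0.0209) and Adk, the adenosine kinase, was lower, with a change of -1.26 (SE 0.27, adjusted p = 0.0221). Adk also fell on 2 dimmer probe sets and gave 0.25 (SE 0.30) on the dimmest tested, whereas the other tested Dpp4 probe sets gave between 0.24 and 0.82 and did not pass. No gene among 10 tested alpha subunits passed.

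In the other lists most of the changes were rises. Gnb4, a beta subunit, was the gene called among 13 tested beta and gamma subunits, with 334, 394 and 309 on the double knockout arrays, against 100.4, 92.9 and 117 on the wild type arrays (log2 change 1.58, SE 0.23, limma adjusted p = 0.00303), and a second bright probe set gave 1.77 (SE 0.26, adjusted p = 0.00268). The dimmest Gnb4 set gave 0.99 (SE 0.30, adjusted p = 0.0836) and did not pass. Arrdc4, an alpha-arrestin, rose by 2.54 (SE 0.30, adjusted p = 0.000762) and was the gene called among 9 tested receptor kinases and arrestins. RGS proteins speed up GTP hydrolysis by alpha subunits and so shorten receptor signals. Of 12 tested, Rgs1 rose by 1.84 (SE 0.26, adjusted p = 0.00201), Rgs2 by 1.18 (SE 0.26, adjusted p = 0.0226), and Rgs10 was lower at -1.56 (SE 0.30, adjusted p = 0.0134). A second Rgs2 probe set passed with 1.24 (SE 0.27, adjusted p = 0.0227), and another bright one gave 0.67 (SE 0.27, adjusted p = 0.194) and did not. The cyclic AMP phosphodiesterases Pde3b (1.76, SE 0.39, adjusted p = 0.0249) and Pde7a (1.05, SE 0.26, adjusted p = 0.0399) were higher among 22 tested effectors. Other tested probe sets of Pde7a gave between 0.64 and 0.89 and did not pass. The single adenosine receptor named on the array here, Adora3, was tested and did not pass.

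**Figure D4:**
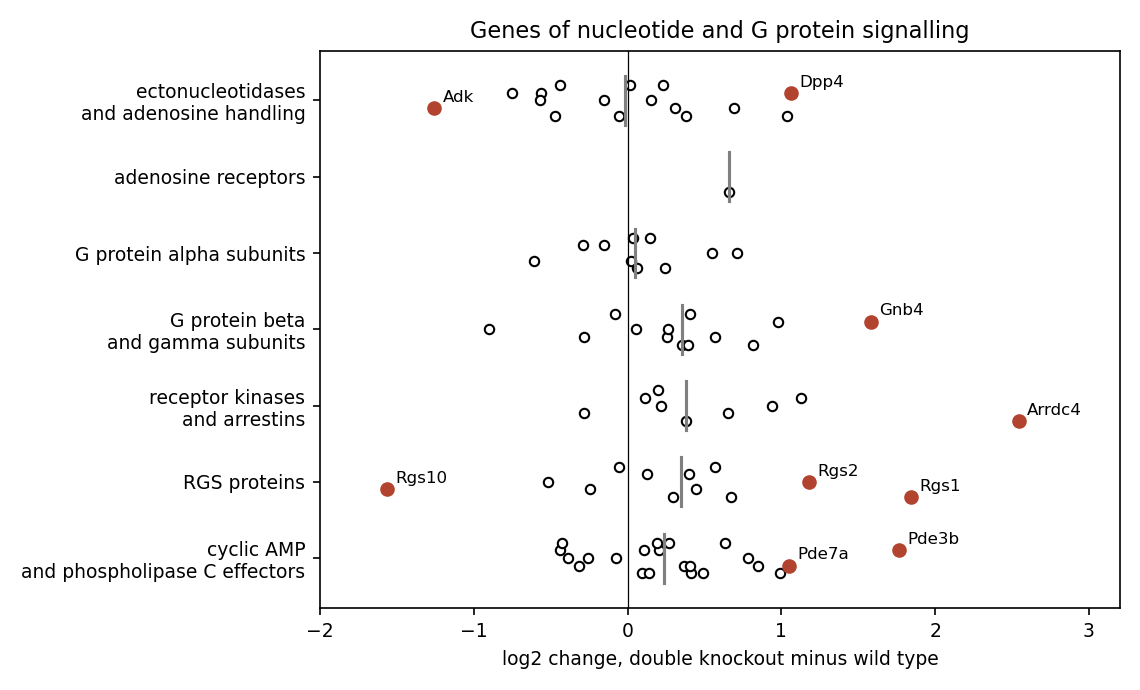
Log2 change (double knockout minus wild type) of each tested gene in the 7 signalling lists, with genes past the test filled and named and a grey bar at each list's median. The medians lie between -0.02 and 0.66, and the 9 named genes run from Rgs10 at -1.56 to Arrdc4 at 2.54.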

How the data were processed

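The deposited values are intensities on a linear scale, which the authors had scaled so that the mean of the middle 96% of values is 150 on every array, as seen from the values; the labels do not say how probes were summarised. After 64 control probe sets were left out, 45037 probe sets remained on 6 arrays (3 double knockout, 3 wild type), grouped by the sample titles. Genes were named from a platform annotation, and 34741 of 34945 single symbols were updated through RefSeq (GRCm38.p6). Receptors were matched on the platform symbol. An offset of 16 was added, log2 taken and each array centred on its median. Probe sets under the 40th percentile of mean log2 value (an intensity of 13.2) were left out, and the other 27022 went into limma's moderated test (version 3.58.1, R 4.3.3, eBayes with an intensity trend), adjusted by Benjamini-Hochberg over all of them at 0.05. Fold changes on this scale understate changes of dim genes. Counts over genes use the probe set of highest mean. The fit was tested on simulated data. The number of arrays limits the precision.

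Values are named for receptors past the threshold, all P2rx and P2ry genes, genes that reach an intensity of 50, list genes past the threshold, and Egr1 and Egr3. Gpr34, Gpr132, Gpr155 and Gpr3 were named after their values were seen. The receptors and the lists were chosen with earlier results of these data known. The alternatives changed 1 choice each: no centring or quantile normalization, an offset of 1 or 64, the filter, the trend, weights for arrays, a replicate block, or 1 array left out.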

Additional observations from a re-analysis of the deposited data

How the results depend on the processing

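The count of receptor probe sets called higher was 5 and lay between 4 and 7 under the 10 alternatives that keep all arrays, and between 3 and 6 with 1 array left out. The count called lower was 0 and became 2 with array weights (Gpr25 and P2ry4), and lay between 0 and 1 with 1 array left out. Over all probe sets the 1358 calls became 3417 with array weights and 573 with the replicate block, and lay between 376 (without double knockout replicate 1) and 2744 (without wild type replicate 3). Gpr171, P2ry14 and Gpr65 kept their direction and call under each of 16 alternatives, P2ry10 under 15 and Gpr18 under 9. The replicate block took the call from Gpr18 (adjusted p = 0.0862), and the 4 other receptors kept theirs. The values showed no pairing by number: the deviations of same-numbered arrays from their group means correlated at -0.0467, -0.133 and -0.291, and 0 of 6 arrays correlated best with its own number. With 3 arrays in each group, this check cannot exclude a pairing. An intensity limit of 25 in place of 50 gave 34 receptor probe sets in place of 22. With 1 probe set for each gene, taken by highest mean or by smallest p, 5 receptor genes were called. On every array 51 of the 107 receptor probe sets read under the brightest bacterial control, which limits what their values can show.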

Other observations

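Several of the receptors that rose have neighbours of the same kind along the chromosome, in the gene order of RefSeq, and the neighbours were looked up after the values were seen. On chromosome 3, Gpr171 and P2ry14 are adjacent, and both lie within the span of Med12l, a Mediator subunit gene. The Med12l probe set of highest mean read 142, 223 and 114 on the double knockout arrays, against 13.7, 8.78 and 18.1 on the wild type arrays (log2 change 2.52, SE 0.27, limma adjusted p = 0.000417), while another gave 0.55 (SE 0.25, adjusted p = 0.262). P2ry13 and P2ry12, in the same span of related receptors, were dim in both groups, with means of 20.8 and 10.8 on the double knockout arrays and 21.8 and 2.62 on the wild type arrays. The part of Med12l transcripts in these signals was not tested.

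On the X chromosome, P2ry10 is followed by its relative P2ry10b, which averaged 24.3 ± 10.9 on the double knockout arrays and 32.5 ± 9.75 on the wild type arrays (SD, n = 3 each; log2 change -0.30, SE 0.28, limma adjusted p = 0.637), then by Gpr174 and by Itm2a, a membrane protein gene of T cells, which was higher (1.45, SE 0.22, adjusted p = 0.00314). On chromosome 14, Gpr18 and Gpr183 are adjacent, Gpr18 lies within the span of Ubac2 (0.68, SE 0.28, adjusted p = 0.204), and the difference between the 2 receptors' changes was not tested. Galc, a lysosomal galactosylceramidase gene next to Gpr65 on chromosome 12, gave 1.02 (SE 0.28, adjusted p = 0.0558). Among relatives whose symbols fall outside the naming rule, Gpr137b gave 0.79 (SE 0.27, adjusted p = 0.12) and Gpr31b -0.08 (SE 0.24, adjusted p = 0.899).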
